A study of Mus musculus with 36 samples.

Results

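Glutathione transferases (GSTs) were followed by 14 Affymetrix probe sets for 9 genes, out of 45037 probe sets and 18193 genes on the array. The 9 genes were Gstp3, Gsta3, Gsta4, Gstm1, Gstm2, Gstm3, Gstt1, Gstt2 and Gstk1, and a probe set belonged to one of them where the platform annotation gave that symbol alone. The family was chosen by the wide spread of the Gstp3 score between livers, so the Gstp3 values in liver are given as a description without a test.

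All mice were male ddY animals, an outbred stock, 5 weeks old on arrival and then kept for a further period of acclimatisation. By feeding tube they received either a 1.8% casein-type amino acid mixture (CAAM) or water, 37.5 µL per g of body weight, once a day for 5 administrations. Food was taken away on the last day, and the animals were killed 4 h after the last dose. Liver, brown fat (BAT) and white fat (WAT, depot not named in the labels) of 5 CAAM mice, numbered 2, 4, 5, 6 and 7, and of 7 water mice, numbered 1 to 7, were hybridised to 36 arrays. Other CAAM mice had been excluded by the study for abnormal livers, and a shared number does not mean a shared animal between CAAM and water.

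Values are distribution free weighted (DFW) scores, which behave like log2 levels between probe sets. Within a tissue each probe set's deviations between arrays are scaled by a weight of its own, so that the median probe set had an SD between arrays of only 1.1e-05 in liver, 7.4e-06 in BAT and 1.4e-05 in WAT. For this reason no fold change is given. The value of an array is given in SD units from the median of the water mice of that tissue, the SD being that within the groups, and a standardised difference is the CAAM mean minus the water mean in the same SD. With 5 against 7 arrays its standard error is 0.586 for every gene. The tissues matched their labels: albumin (Alb) stood at 14.997 in liver, against 6.54 in BAT and 6.98 in WAT, the uncoupling protein Ucp1 at 14.2 in BAT, against 6.27 in liver and 6.44 in WAT, and leptin (Lep) at 11.3 in WAT, against 6.43 in liver and 7.34 in BAT. The WAT array of CAAM mouse 6 stood apart, with 14.7% of all probe sets more than 2 SD from the mean of the 12 WAT arrays, against 0.626% to 7.15% on the other WAT arrays. In such bulk tissue, fewer cells of a type and less RNA per cell cannot be told apart.

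GSTs couple glutathione, the abundant thiol of the cell, to electrophilic compounds, which are thereby made water-soluble and ready for export. The cytosolic enzymes fall into classes of related sequence, among them alpha (Gsta), mu (Gstm), pi (Gstp) and theta (Gstt), while the kappa enzyme Gstk1 is found in mitochondria and peroxisomes. Liver is their best-known site, and several members are targets of NRF2 (Nfe2l2), the transcription factor of the electrophile response, which binds antioxidant response elements. The pi genes Gstp1, Gstp2 and Gstp3 lie next to each other on mouse chromosome 19. Gstp1 encodes an abundant GST of the male mouse liver.

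The promoters of Gstp3 and Gstp1 are shown because the scores of these neighbours ran in opposite directions across the livers, as described further on. Both are RefSeq windows of GRCm38.p6, minus strand, at chr19:4059398-4059697 for Gstp3 and chr19:4037863-4038162 for Gstp1. They were searched on both strands for TGANTCA, the core shared by AP-1 and Maf sites, which is in capitals. The other motif sought was TGACNNNGC, a strict form of the core of the antioxidant response element.
Gstp3: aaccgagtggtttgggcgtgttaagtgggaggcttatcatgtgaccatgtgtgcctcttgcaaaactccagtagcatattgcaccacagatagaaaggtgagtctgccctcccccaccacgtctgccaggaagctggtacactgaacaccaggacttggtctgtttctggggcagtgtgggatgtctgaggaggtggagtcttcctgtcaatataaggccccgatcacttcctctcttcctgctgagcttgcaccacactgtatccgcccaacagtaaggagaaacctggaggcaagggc
Gstp1: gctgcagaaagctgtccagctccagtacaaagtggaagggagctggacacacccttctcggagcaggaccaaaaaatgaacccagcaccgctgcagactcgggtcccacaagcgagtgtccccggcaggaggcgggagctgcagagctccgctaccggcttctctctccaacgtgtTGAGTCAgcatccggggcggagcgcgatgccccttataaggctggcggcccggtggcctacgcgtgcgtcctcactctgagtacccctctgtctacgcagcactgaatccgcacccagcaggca
TGANTCA occurred 1 time in the Gstp1 window, 74 bases before the start, and 0 times in the Gstp3 window. Neither window held TGACNNNGC. The TGAGTCA of Gstp1 is followed by gc, so this site differs from TGACNNNGC only by a G in place of the C. A looser form of that core was not searched for. Of 32851 mouse promoters of the same length, 7.81% held TGANTCA and 12.4% held TGACNNNGC. The window of Gstp2, which has no probe set of its own symbol here, held TGANTCA 89 bases before its start, likewise as TGAGTCA followed by gc. Among the other members with a window in the table, Gsta3 held TGACNNNGC 1 time, and the windows of Gstm1, Gstm2, Gstm3, Gstt1 and Gstk1 held neither motif.

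By the SD of its score, Gstp3 was the member that differed most from mouse to mouse in liver. In CAAM livers its score was 8.80 in mouse 2, 8.60 in mouse 4, 10.07 in mouse 5, 10.28 in mouse 6 and 8.66 in mouse 7. In water livers it was 10.31, 10.26, 10.28, 9.17, 8.62, 10.30 and 10.22 in mice 1 to 7. The values lay in 2 ranges with nothing between 9.17 and 10.07: 5 livers, 3 of CAAM and 2 of water mice, from 8.60 to 9.17, and 7 livers, 2 of CAAM and 5 of water mice, from 10.07 to 10.31. Both groups therefore had livers in both ranges. The SD over the 12 livers, 0.775 score units, was the third highest of all 45037 probe sets, after those of Sdhd (1.14) and BC023105 (1.05). Mean scores were 9.28 ± 0.82 in CAAM livers and 9.88 ± 0.69 in water livers (SD, n = 5 and 7), a difference of -0.60 score units (SE 0.44), or -0.80 SD.

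**Figure D1:**
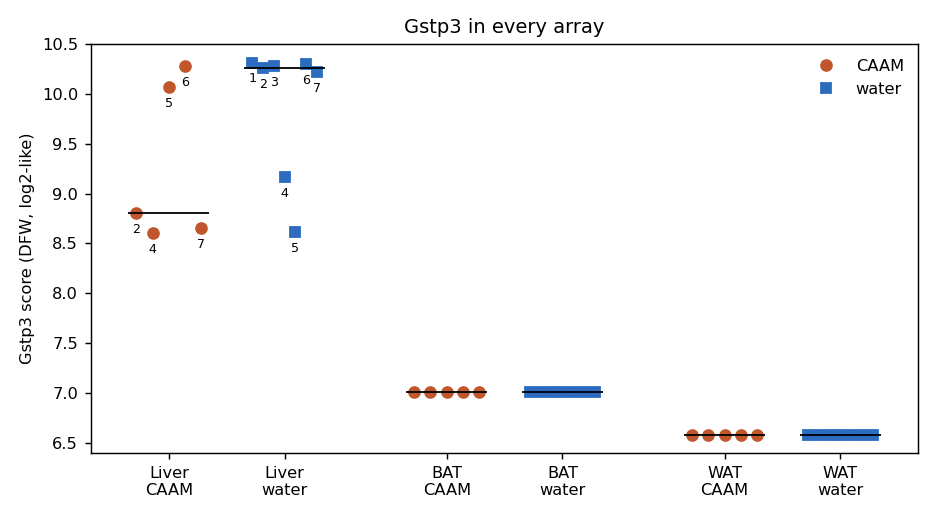
Gstp3 score (DFW, log2-like, vertical axis) in each array of liver, BAT and WAT, CAAM mice as circles left of water mice as squares, with the group median as a line and the mouse number beside each liver point. The livers lie in 2 ranges, 8.60 to 9.17 and 10.07 to 10.31, and the fat arrays of a tissue share 1 level at this scale.

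In the fat of the same mice the level of Gstp3 was low. In BAT its score was 7.01 and in WAT 6.58 in each mouse, near the median probe set of the tissue (6.78 in BAT and 6.92 in WAT). Its SD between the 12 arrays was 4.2e-04 in BAT and 2.0e-05 in WAT, against medians over all probe sets of 7.4e-06 and 1.4e-05, and it ranked 1807 of 45037 in BAT and 19215 in WAT. By the SD of its score BAT Gstp3 thus ranked high in that tissue. Since each probe set has a weight of its own, such ranks need not follow the variation in RNA.

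In water mice, most of the family stood higher in liver than in either fat. The tissues appear to have been quantified apart, since most arrays of a tissue share one highest value, so levels are set side by side and no test between tissues was made. A difference of at least 1 score unit was counted. Liver against WAT, 5 of 9 genes were higher by that much, where 3.96% of all probe sets were, and 1 was lower, where 8.35% were. Liver against BAT, 6 of 9 were higher, against 5.02% of all probe sets, and 0 lower, against 4.6%. BAT against WAT, 0 were higher, against 1.77%, and 3 were lower, against 4.91%. The median difference of the 9 genes was 1.57 for liver minus WAT and 2.01 for liver minus BAT, beside -0.05 and 0.02 for all probe sets. Between BAT and WAT the median of the 9 genes was -0.03, beside -0.09 for all probe sets.

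Of the alpha class, Gsta3, whose mouse enzyme is known for the conjugation of aflatoxin B1 epoxide, had the widest range over the tissues. Its score in water mice was 12.8 in liver, 6.29 in BAT and 10.1 in WAT, so that liver lay 6.48 above BAT and 2.63 above WAT, and BAT lay 3.86 below WAT. A lower probe set of the same gene kept this order at 10.7 in liver, 6.05 in BAT and 7.66 in WAT over all 12 mice. Gsta4, which acts on 4-hydroxynonenal, a product of lipid peroxidation, hardly differed: it was 10.8 in liver, 10.9997 in BAT and 10.7 in WAT.

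The mu class held the highest member, Gstm1, at 13.3 in liver, 10.6 in BAT and 10.7 in WAT. Gstm3 was likewise a liver transcript, at 10.2 in liver, 7.54 in BAT and 7.28 in WAT. Gstm2 was the exception of the family, with its highest score in WAT: it was 9.21 in liver, 9.13 in BAT and 10.4 in WAT. Liver and BAT lay within 0.07 of each other for Gstm2, and this sign turned (-0.02) when all arrays were quantile normalised together. The leading probe sets of Gstm1 and Gstm3 are of types (x and s) that can also bind transcripts of related genes, so their split within the mu class is uncertain.

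The theta enzymes Gstt1 and Gstt2, the first of them known for small halogenated substrates, stood at 10.6 and 10.3 in liver, 8.60 and 9.41 in BAT, and 9.74 and 9.45 in WAT. Gstk1 was 11.4 in liver, 10.2 in BAT and 9.83 in WAT. Of the pi class, Gstp3 in water mice averaged 9.88 in liver, 7.01 in BAT and 6.58 in WAT. Even the lowest water liver lay 2.03 above the highest WAT array of the water mice. Gstp1, no member of the chosen set, was 13.9 in liver, 12.2 in BAT and 12.3 in WAT. Gsta4 and Gstm2 excepted, liver held the highest score for each of the 9 genes, while the order of BAT and WAT varied.

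**Figure D2:**
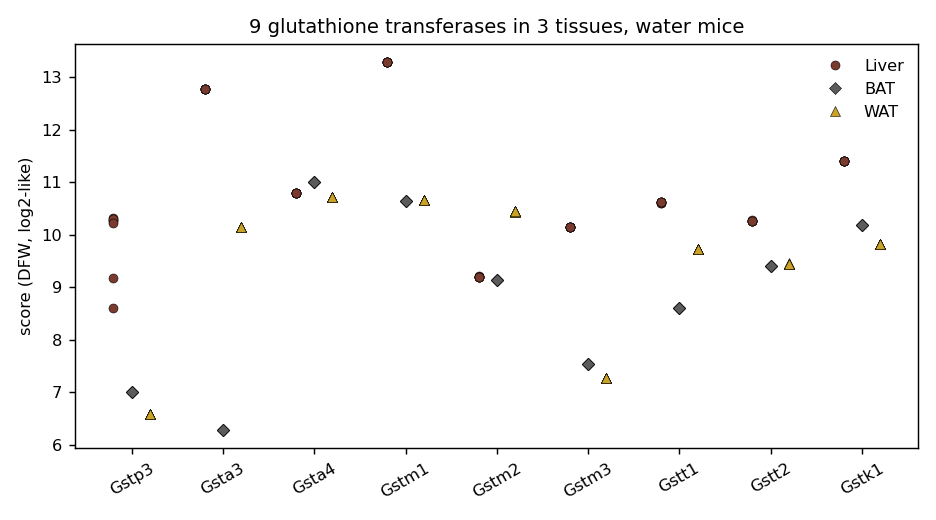
Scores (DFW, log2-like, vertical axis) of the leading probe set of each of 9 genes in the 7 water mice, liver as circles, BAT as diamonds and WAT as triangles, 1 point per array. Points of a gene and tissue fall on each other except for Gstp3 in liver, and liver lies highest for 7 genes, with Gsta4 highest in BAT and Gstm2 in WAT.

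CAAM and water were next compared within each tissue. In liver, limma called 0 of the 8 genes other than Gstp3 and 0 of all 45037 probe sets (0%) at an adjusted p under 0.05, while 3047 probe sets (6.77%) had an unadjusted p under 0.05. Of the 8, 5 were lower and 3 higher in CAAM livers, with a median standardised difference of -0.08, beside -0.09 for all probe sets. Rank products, the test of the study's methods, called 3 of the 8 lower (Gsta4, Gstt1 and Gstt2), where it called 1.17% of all probe sets, and 0 higher, where it called 1.62%. Of the 8, 0 were called by rank products once each difference was divided by its SD. On simulated data most rank product calls fell among unchanged probe sets, so the estimated shares of false positives may be too low here.

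Gsta4 had the lowest p of the 8 in liver. Its CAAM values were 0.67, -1.62, -2.58, -2.29 and -2.41 SD units in mice 2, 4, 5, 6 and 7, and its water values ran from -1.27 to 0.73 around a median of 0. Hence 4 of the 5 CAAM livers lay below every water liver, and that of CAAM mouse 2 lay among the water livers. The standardised difference was -1.40 (limma adjusted p = 0.720), and -3.29 without CAAM mouse 2, where limma still called 0 members. Markers of Kupffer cells and macrophages went the other way. In CAAM livers 10 of 10 were higher (median 1.36 SD). Limma called 0 of them and rank products 9, where 1.62% of all probe sets were called higher. Their mean score averages the markers in SDs from the mean of the 12 livers. This score ran from -0.22 to 2.17 in CAAM and from -1.52 to 0.62 in water livers. It had a Pearson r of -0.70 with Gsta4, -0.64 with Gstt2 and -0.55 with Gsta3 over the 12 livers. For the remaining genes of the family r ran from -0.19 (Gstm1) to 0.21 (Gstm2). The part of this score in the results was not tested.

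Gsta3 came next among the 8. CAAM livers had 0.82, -0.61, -1.78, -0.80 and -2.21 SD units in mice 2, 4, 5, 6 and 7, against a range of -1.69 to 0.43 in water livers. The groups overlapped, and the standardised difference was -0.53 (limma adjusted p = 0.909), -1.16 without CAAM mouse 2 and -0.22 without CAAM mouse 7. By rank products the lower Gsta3 probe set had an estimated share of false positives of 0.0282 for a lower level in CAAM livers, against 0.267 for the leading one. Both Gsta3 probe sets ran alike over the livers (r = 0.96), as did Gsta3 and Gsta4 (r = 0.84). CAAM mouse 2 was the highest CAAM liver for both alpha genes.

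Gstt2 was lower by rank products with an estimated share of false positives of 0.0015, while its standardised difference was -0.52 (limma adjusted p = 0.912). Gstt1 was called lower at 0.0169 although its mean was higher in CAAM livers by 0.07 SD. The Gstt1 mean rested on water mouse 5, at -3.08 SD units in a group whose other 6 livers lay between -0.06 and 0.28, and without that mouse the standardised difference was -0.94. The mu genes and Gstk1 differed by -0.15 SD (Gstm1), 0.15 SD (Gstm2), 0.05 SD (Gstm3) and -0.01 SD (Gstk1). Other Gstm1 probe sets differed by -1.21 SD (limma adjusted p = 0.742, all 5 CAAM livers below the water median), -0.07 and -0.04 SD.

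In BAT, limma called 0 of the 9 genes and 0 of all probe sets (0%), with 2886 probe sets (6.41%) at an unadjusted p under 0.05. Here 7 of the 9 were higher in CAAM mice, with a median of 0.39 SD, beside -0.01 for all probe sets. Rank products called 1 higher, Gstp3, where 1.18% of all probe sets were called higher, and 0 lower, where 2.06% were. The Gstp3 call was lost with quantile normalisation, with dim probe sets left out, on the linear scale, after division by the SD, and without CAAM mouse 2, 4, 5 or 7 or water mouse 6. In level BAT Gstp3 was near the median probe set. Each of the 5 CAAM mice exceeded the median water mouse, with 3.12, 0.89, 0.61, 0.07 and 0.65 SD units in mice 2, 4, 5, 6 and 7, and the water mice ran from -1.88 to 0.67. Only CAAM mice 2 and 4 passed the highest water value. The standardised difference was 1.19 (limma adjusted p = 0.796), and 0.94 without CAAM mouse 2.

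BAT Gsta3 was 2.46, 0.12, 0.91, 0.94 and -0.52 SD units in CAAM mice 2, 4, 5, 6 and 7, and -1.56 to 0.66 in water mice. Its standardised difference was 1.02 (adjusted p = 0.834) at a low level of expression. For Gstm3 the CAAM values were 0.18, -1.80, -0.32, 0.54 and -0.08 SD units, and the water values ran from -0.20 to 2.17. Water mice 3 and 4 carried that difference of -0.85 SD (limma adjusted p = 0.884). With each array centred on its median it was 0.89 SD. BAT array medians spanned 0.0014, against an SD of 3.1e-06 for Gstm3, so the centred value mostly follows the array medians. The other 6 genes lay between -0.42 (Gstm1) and 0.58 (Gstk1). Of the skeletal muscle markers, 10 of 10 had a lower mean in CAAM mice (median -0.45 SD). Limma called 0 of them and rank products 10, where 2.06% of all probe sets were called lower. Their mean score ran from -0.79 to 1.497 in CAAM and from -0.64 to 1.93 in water mice. That score had an r of 0.31 (rho = -0.13) with Gstp3 and 0.33 (rho = 0.06) with Gsta3. With Gstk1 and Gstt2 r was -0.49 and -0.48 (rho = -0.43 and -0.47). The part of the muscle score in these values was not tested.

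In WAT, limma again called 0 of the 9 genes and 0 of all probe sets (0%), with 1784 (3.96%) at an unadjusted p under 0.05. Of the 9, 5 were lower and 4 higher in CAAM mice, with a median of -0.21 SD, beside 0.01 for all probe sets. WAT Gstp3 was 1.03, 1.34, -0.46, -1.67 and 0.26 SD units in CAAM mice 2, 4, 5, 6 and 7 and -1.32 to 1.33 in water mice, a difference of 0.07 SD. Rank products called 1 lower, Gstt1, where 1.94% of all probe sets were called, and 0 higher, where 0.822% were. With quantile normalisation, with dim probe sets left out, with the mean of all probe sets, after division by the SD, and without CAAM mouse 2 or any 1 of water mice 2 to 7, 0 were called lower. Gstt1 had -1.25, 0.12, -0.06, -3.01 and 0.20 SD units in CAAM mice 2, 4, 5, 6 and 7, and -1.08 to 0.87 in water mice. Its standardised difference was -0.76 (limma adjusted p = 0.999929), and -0.32 without CAAM mouse 6. Gstk1 followed, at 1.46, -0.32, -0.46, -2.28 and -0.68 SD units in CAAM and -0.58 to 1.43 in water mice, a difference of -0.62 SD, and -0.21 without CAAM mouse 6.

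The array of CAAM mouse 6 thus set many of the WAT values. Of the 9 genes, 5 lay more than 2 SD from the mean there: in SD units from the water median Gstm1 and Gstm2 were high (2.202 and 2.87) and Gsta4, Gstt1 and Gstk1 low (-2.87, -3.01 and -2.28). Without it the standardised difference was -0.82 for Gstm2, against 0.15 with it, 0.65 for Gsta4, against -0.28, and -1.27 for Gstm1, against -0.23. Secretory genes of the epididymis, an organ beside the gonadal fat of male mice, were high on some arrays. Of 10 such markers 7 were measured, of which 2 were higher and 5 lower in CAAM mice (median -1.18 SD, 0 called by limma). Rank products called 2 higher and 5 lower, where 0.822% and 1.94% of all probe sets were called. Their mean score was 0.69 in CAAM mouse 6, against -0.62 to -0.23 in the other CAAM mice. It was 1.48 and 1.09 in water mice 1 and 2, against -0.32 to -0.13 in the other water mice. It had an r of 0.74 (rho = 0.42) with Gstm2 and -0.61 with Gsta4 over the 12 arrays, and its part in these values was not tested.

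**Figure D3:**
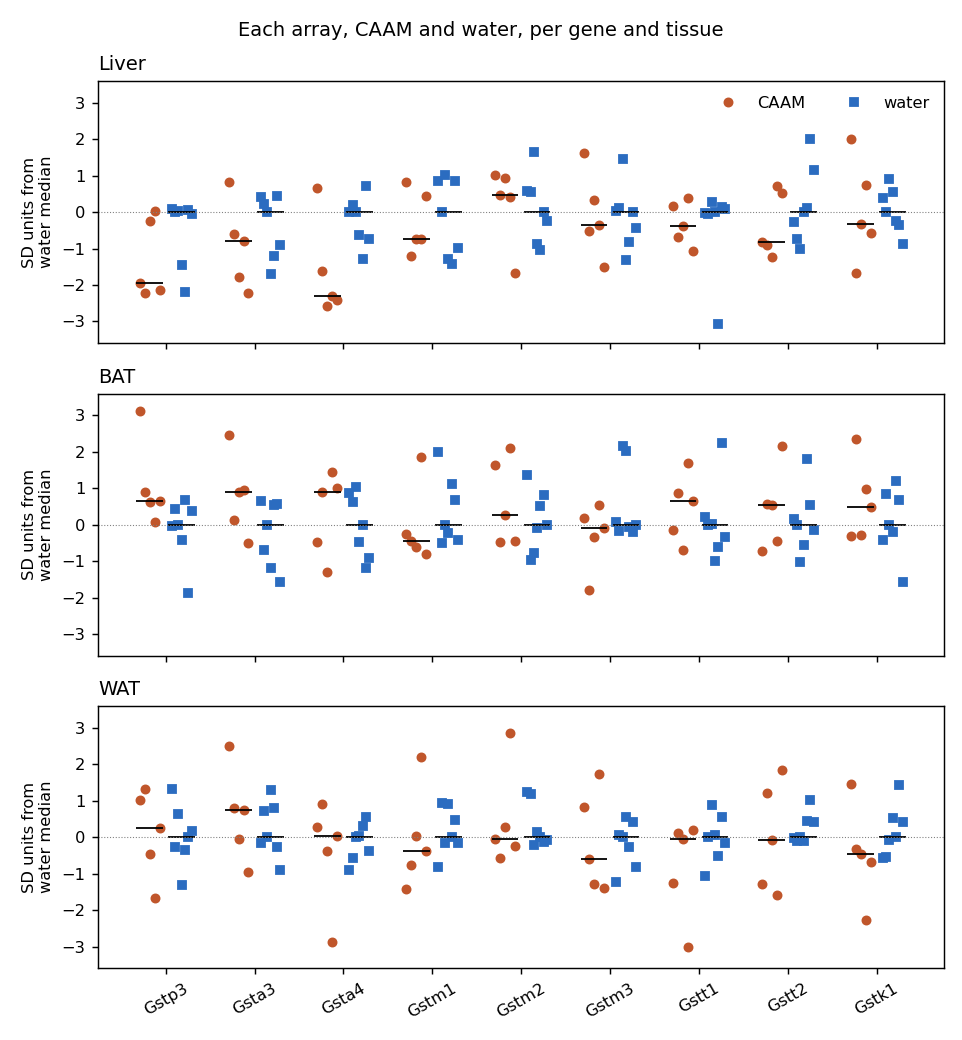
SD units from the water median (vertical axis) of the leading probe set of 9 genes in liver, BAT and WAT, CAAM mice as circles left of water mice as squares, 1 point per array, with the group median as a line. The groups overlap for every gene in every tissue, and for Gsta4 in liver 4 of 5 CAAM arrays lie below all 7 water arrays.

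The difference between tissues within each of the 12 mice was also compared between CAAM and water. Deviations are scaled apart for each probe set and tissue, so this difference mostly follows the tissue with the larger SD. It therefore cannot decide whether the response to CAAM differed between tissues. Gstp3 is left out of the members here, since its liver values chose the family. Limma called 0 of the other members and 0 of all probe sets for each pair of tissues. Unadjusted p was under 0.05 for 2787 probe sets in liver minus BAT, 2425 in liver minus WAT and 2507 in BAT minus WAT. The lowest p among these members was that of Gsta4 in liver minus BAT, at -1.41 SD (limma adjusted p = 0.783). In liver alone the Gsta4 difference was -1.40 SD, its SD between arrays being 1.2e-04 in liver and 3.8e-06 in BAT.

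Beyond the 9 genes, 18 of 20 other transferases of the superfamily were measured. In CAAM mice 15 were lower and 3 higher in liver (median -0.34 SD), 10 lower and 8 higher in BAT (-0.06 SD), and 6 lower and 12 higher in WAT (0.22 SD), with 0 called by limma. Of all probe sets 55.5% were lower in CAAM livers, 50.8% in BAT and 48.9% in WAT, with medians of -0.09, -0.01 and 0.01 SD. Rank products called 2 of the 18 lower in liver (1.17% of all probe sets), 3 lower and 1 higher in BAT (2.06% and 1.18%), and 1 lower and 4 higher in WAT (1.94% and 0.822%). Gstz1, the zeta enzyme that isomerises maleylacetoacetate in tyrosine breakdown, differed by -1.81 SD in liver (limma adjusted p = 0.680) and by 2.43 SD in BAT (adjusted p = 0.612). Ptges, a prostaglandin E synthase, had -1.4995 SD in liver, Hpgds, a prostaglandin D synthase, -1.13 SD in BAT, and Gsto2 and Mgst2 had -0.82 and 0.79 SD in WAT, the lowest limma adjusted p being 0.745.

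Of the genes for glutathione synthesis, recycling and export, 24 of 26 were measured, and 0 were called by limma. In CAAM mice 14 were higher and 10 lower in liver, 13 higher and 11 lower in BAT, and 14 higher and 10 lower in WAT, with medians of 0.07, 0.01 and 0.07 SD. Rank products called 1 lower in liver, where 1.17% of all probe sets were called lower, and 0 in BAT (1.18% higher and 2.06% lower). In WAT they called 2 higher and 1 lower (0.822% and 1.94%). The exporter Abcc4 had 2.205 SD in liver (limma adjusted p = 0.636), the glutathione synthetase Gss 1.26 SD in liver and the glyoxalase Hagh 1.37 SD in BAT (adjusted p = 0.736 and 0.751), while Ggct in BAT and Abcc2 and Abcc3 in WAT had 0.92, -1.13 and 1.04 SD. Of 21 genes of the NRF2 pathway, 19 were measured, again with 0 called by limma. Here 14 were higher and 5 lower in CAAM livers, 6 higher and 13 lower in BAT, and 8 higher and 11 lower in WAT, with medians of 0.19, -0.31 and -0.15 SD. Rank products called 1 higher and 2 lower in liver (1.62% and 1.17% of all probe sets). They called 5 lower in BAT, where 2.06% of all probe sets were called lower, and 1 lower in WAT (1.94%). Sulfiredoxin (Srxn1) had 1.33 SD and Nfe2l2 itself 0.95 SD in liver, Akr1b8, an aldo-keto reductase, -1.34 SD in BAT and -1.499 SD in WAT, and Osgin1 -1.78 SD in BAT and 1.04 SD in WAT, the lowest limma adjusted p being 0.728. Across the livers the mean scores of the lists had r of 0.07 and 0.15 with Gstp3, while Nfe2l2 itself had -0.63 (rho = -0.79), the lowest r of the 19.

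GSTs of the pi class are sex-dependent in mouse liver, so genes known for a male or female bias were also described. Of 19 male-predominant genes 14 were measured, and 12 of these were lower and 2 higher in CAAM livers, with a median of -0.28 SD. Of 14 female-predominant genes 9 were measured, of which 6 were higher and 3 lower (median 0.50 SD). Limma called 0 of either list in any tissue, while rank products in liver called 6 of the male list lower and 0 higher, and 4 of the female list higher and 1 lower, where 1.17% of all probe sets were called lower and 1.62% higher. Of all probe sets 55.5% had a lower mean in CAAM livers. Keg1 and Cyp2d9 (-1.03 and -0.81 SD) had the lowest p of the male list in liver, and Cyp17a1 and Cyp2b13 (0.88 and 0.83 SD) of the female list. Over the livers the mean scores had r of -0.14 and 0.14 with Gstp3. In fat the male list had 7 lower and 7 higher in BAT and 4 lower and 10 higher in WAT, and the female list 3 lower and 6 higher in BAT and 4 lower and 5 higher in WAT. The lowest p of the male list belonged to Cyp2u1 and Hsd3b5 in BAT (-2.27 and -1.16 SD) and to Cyp4a12a and Nudt7 in WAT (0.85 and 0.84 SD), and of the female list to Sult3a1 and Prom1 in BAT (1.19 and 0.95 SD) and Cyp3a44 and Prom1 in WAT (-0.73 and 0.57 SD).

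Among themselves the 9 genes ran together in liver more than in fat. Over the 36 pairs of genes the median Pearson r across 12 arrays was 0.40 in liver, 0.07 in BAT and -0.02 in WAT, with 32, 20 and 18 pairs above 0. In liver the highest were Gstm2 with Gstm3 (0.88) and Gsta3 with Gsta4 (0.84), both pairs of 1 class, and the lowest was Gstm2 with Gstt2 (-0.53). The member nearest to Gstp3 in liver was Gstt1 by r (0.62, rho = 0.62) and Gstm1 by rho (0.69, r = 0.32). Water mouse 5, at -3.08 SD units for Gstt1, had a Gstp3 score of 8.62. In WAT the range was wide, with -0.95 for Gsta4 and Gstm2, -0.89 for Gstp3 and Gstm1 and 0.78 for Gsta4 and Gstt1, and on the array of CAAM mouse 6 Gstm1, Gstm2, Gsta4 and Gstt1 were all past 2 SD. These arrays share mouse, hybridisation and any batch, and the coefficients are a description. No such median was taken over other genes, so whether gene pairs in general run higher in liver is not known. The leading Gstm3 probe set can also bind related transcripts, which limits the reading of its r with Gstm2.

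The genes most like Gstp3 across the 12 livers were sought among 3440 probe sets (2592 genes) with a level at or above the median and a high SD between livers, whose r with Gstp3 ran mostly from -0.37 to 0.35. The highest were Cct6a (r = 0.86), a subunit of the cytosolic chaperonin, Snap47 (0.81), a SNARE protein, the glutamine synthetase Glul (0.73), the lectin Lgals4 (0.69) and Jmjd4 (0.67). At the other end stood Ndufv1 (-0.91), a flavoprotein subunit of respiratory complex I, Gstp1 (-0.74) and Tmcc3 (-0.72). Since Gstp3 lay in 2 ranges, these coefficients rest on the gap between them: over the 7 livers of the upper range r was -0.47 for Cct6a, 0.79 for Ndufv1 and -0.25 for Gstp1, and no test was made. Another Cct6a probe set parted the ranges less well. In SD units from the mean of the 12 livers it was -1.24 in water mouse 3 (Gstp3 10.28) and 0.17 in CAAM mouse 4 (Gstp3 8.60). In the other livers it was above its mean in the upper range and below it in the lower.

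Ndufv1 and Gstp1 both lie on chromosome 19 beside Gstp3, Gstp1 being the second and Ndufv1 the third protein-coding gene before it in the RefSeq order of GRCm38.p6. Gstp1 had 0.53, 1.07, -0.44, -2.36 and 0.54 SD units in CAAM livers 2, 4, 5, 6 and 7, and -0.52, -0.56, 0, 0.27, 0.81, -1.16 and 0.26 in water livers 1 to 7. The CAAM livers with a low Gstp3, those of mice 2, 4 and 7, were thus the 3 with a high Gstp1. CAAM and water did not stand apart for Gstp1, whose standardised difference was -0.0032. Over the 12 livers its Spearman rho with Gstp3 was -0.87, beside r of -0.74.

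Ndufv1 (its a-type probe set), in SD units from the mean of the 12 livers, was 1.13, 1.18, -1.43, -0.87 and 1.22 in CAAM mice 2, 4, 5, 6 and 7. In water mice 1 to 7 it was -0.40, -0.34, -0.40, 0.83, 0.96, -0.59 and -1.29. It was above its mean in CAAM mice 2, 4 and 7 and water mice 4 and 5, the same animals whose Gstp3 was 9.17 or lower, and below it in the other 7. Its r with Gstp3 was the lowest of all 45037 probe sets in liver, and was -0.89 in the water mice alone and -0.97 in the CAAM mice alone.

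The same Ndufv1 probe set also followed the liver Gstp3 score of the mouse in its fat, where Gstp3 itself was near the median probe set. Its r with liver Gstp3 was -0.79 in BAT and -0.86 in WAT, the 35th and 15th lowest of all probe sets, against -0.53 and -0.19 for Gstp3 itself. Because of this, and with these values in view, the 5 protein-coding genes on either side of Gstp3 were examined, of which 7 (11 probe sets) were measured under a symbol of their own. Ndufv1 and Gstp1 prompted this choice and their values are no further support for it. Of the others, Cdk2ap2, the second protein-coding gene after Gstp3, had an r of -0.92 in BAT and -0.72 in WAT, against 0.34 in liver, on 1 of its 2 probe sets, and -0.59 in BAT and -0.18 in WAT, against 0.09 in liver, on the other. The x-type probe set of Ndufv1 had -0.81 in liver, -0.30 in BAT and -0.48 in WAT, and the remaining probe set of that gene had -0.19 in liver. Tmem134, Cabp2, Doc2g and Nudt8 stayed above -0.7 in each tissue. Of all probe sets, 0.191% in liver, 0.477% in BAT and 0.906% in WAT had an r below -0.7 with liver Gstp3. Within the upper range of 7 mice the coefficients were -0.03 for Ndufv1 and 0.24 for Cdk2ap2 in BAT, and -0.37 and 0.41 in WAT. The source of this pattern was not tested.

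**Figure D4:**
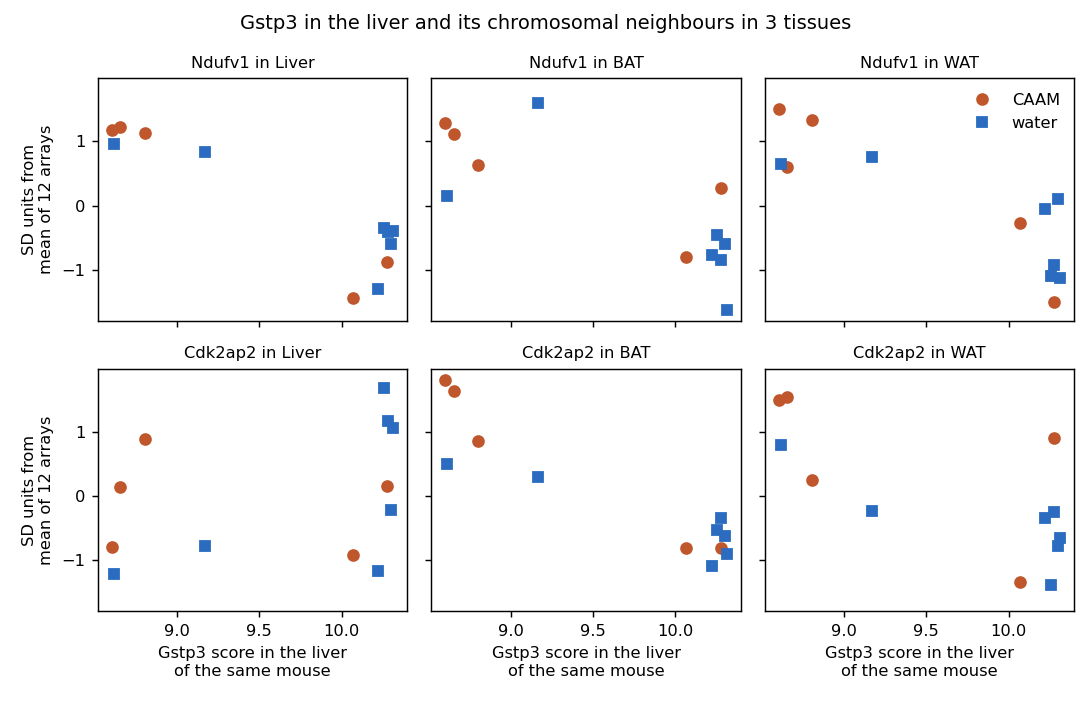
Scores of Ndufv1 (above) and Cdk2ap2 (below) in liver, BAT and WAT, in SD units from the mean of the 12 arrays, against the Gstp3 score in the liver of the same mouse, CAAM as circles and water as squares. Ndufv1 lies higher in the 5 mice with liver Gstp3 of 9.17 or lower in liver and WAT, and Cdk2ap2 does so in BAT, while Cdk2ap2 in liver shows no such order.

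Of the other genes nearest to Gstp3 in liver, Snap47 and Jmjd4 lie next to each other on chromosome 11. In fat, r with the liver Gstp3 score was 0.06 for Snap47 and 0.66 for Jmjd4 in BAT, and 0.71 and 0.43 in WAT. Cct6a, on chromosome 5, had 0.42 in BAT and -0.16 in WAT, and Glul had -0.19 and -0.10.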

How the data were processed

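RNA of 36 tissue samples (liver, WAT and BAT of 5 CAAM and 7 water mice) had been hybridised to Affymetrix mouse genome arrays. The authors quantified the arrays by the distribution free weighted method, and the deposited values are its scores, in 1 table for the series (R 2.7.2 per the submitters' processing notes). The array number limits the precision, and the mice are separate animals. Of 45101 probe sets 64 controls were left out, and of the remaining 45037, 34945 had 1 gene symbol, 932 several and 9160 none.

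CAAM was compared with water within each tissue by limma 3.58.1 in R 4.3.3 (lmFit, eBayes, two-sided, Benjamini-Hochberg over all 45037 probe sets, threshold 0.05) and by rank products over 35 array pairs with 100 permutations within arrays, with a call where the estimated proportion of false positives was under 0.05. The prior degrees of freedom were under 1 (0.674 in liver, 0.625 in BAT and 0.497 in WAT). A limma test between tissues had been foreseen and was not used, since the tissues appear to be quantified apart (one highest value in 12 of 12 livers, 9 of 12 BAT and 8 of 12 WAT arrays).

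For a gene with several probe sets, that of highest average over the 36 arrays stands for it. By rule, values in every array were given for Gstp3 and for the other 2 members with the lowest p in a tissue, the 5 genes with the highest and the 3 with the lowest r with Gstp3 in liver, and of each list the 2 genes with the lowest p per tissue. Values of Gstt1 in liver and of the chromosomal neighbours were added after their values were seen. Members and lists were chosen with earlier results of these data known. Both tests were tested on simulated data, where limma recovered the planted changes of large size, whereas rank products on the deposited scores missed many and made most of their calls among unchanged probe sets. Samples of 1 mouse share an animal. The deviations of CAAM and water mice of the same number correlated between -0.19 and 0.15. Tissues of the same mouse also correlated weakly. Their r ran from -0.02 to 0.12 for liver and WAT, 0.06 to 0.18 for liver and BAT, and -0.02 to 0.33 for BAT and WAT. Weak correlation therefore cannot show whether the numbers pair CAAM and water mice, and no such pairing is known. Alternatives were other normalisations, a filter on dim probe sets, a linear scale, the mean of all probe sets, a replicate block, 1 fit of all arrays, other prior settings and leaving out each mouse.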

Additional observations from a re-analysis of the deposited data

Results flagged for a closer look

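The 14 probe sets gave 84 sets of values (1 for each tissue and treatment), of which 8 had a highest or lowest mouse set apart by Dixon's ratio of gap to range, where chance gives about 1 in 20. In liver these were Gstt1 in water mouse 5, the lowest (ratio 0.898, -3.08 SD units), Gstm2 in CAAM mouse 7, the lowest (0.78, -1.67 SD units), and a lesser Gstm1 probe set in CAAM mouse 6, the lowest (0.752, -2.05 SD units). In BAT they were Gstp3 in CAAM mouse 2, the highest (0.733, 3.12 SD units), and in water mouse 6, the lowest (0.579, -1.88 SD units), the leading Gstm1 probe set in CAAM mouse 6, the highest (0.796, 1.87 SD units), and Gstt1 in water mouse 6, the highest (0.625, 2.25 SD units). In WAT it was Gstm2 in CAAM mouse 6, the highest (0.753, 2.87 SD units), on the array that stood apart from the other WAT arrays. The liver of water mouse 5 was also among the 5 with a Gstp3 score of 9.17 or lower.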

How the results depend on the processing

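Limma called 0 of the members in each tissue under every alternative tried. The rank product calls changed more. In liver 3 genes were called lower; 5 were on the linear scale and 0 once differences were divided by their SD, and with 1 mouse left out the count ran from 1 (without water mouse 3) to 4, while the count called higher ran from 0 to 1. In WAT the 1 gene called lower became 0 with quantile normalisation, with dim probe sets left out, with the mean of all probe sets and after division by the SD, and 4 on the linear scale, with 0 to 2 when a mouse was left out (0 without CAAM mouse 2 or any 1 of water mice 2 to 7, and 2 without CAAM mouse 4, 6 or 7). The 1 gene called higher in BAT became 0 with quantile normalisation, with dim probe sets left out, on the linear scale and after division by the SD, and with a mouse left out it ran from 0 (without CAAM mouse 2, 4, 5 or 7 or water mouse 6) to 1. With at least 2 score units required, 0 genes were lower in liver than in WAT and 1 lower in BAT than in WAT.

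Signs turned for small standardised differences. Quantile normalisation gave -0.084 for Gstm2 and -0.088 for Gstt1 in liver, 0.33 for Gstm1 and 0.68 for Gstm3 in BAT, and 0.17 for Gsta4, 0.15 for Gstm1 and 0.20 for Gstk1 in WAT. Arrays centred on their medians gave 0.88 for Gstm1 and 0.89 for Gstm3 in BAT, and 0.14 for Gsta4, 0.046 for Gstm1 and 0.14 for Gstk1 in WAT. The array medians spanned 0.0014 in BAT and 0.0060 in WAT, above the SD between arrays of these genes there. These centred values thus largely follow the array medians. The replicate block gave 0.35 for Gstm1 and 0.20 for Gstk1 in liver and -0.16 for Gstm3 in WAT. It changed no call, and the shared numbers are not known to pair the mice. For tissue differences, Gstm2 in liver minus BAT was -0.016 with quantile normalisation. In BAT minus WAT, Gstm1 was 0.19 and Gstt2 0.26 with quantile normalisation, 0.11 and 0.089 with centring, and Gstm3 was -0.0344 with the mean of all probe sets. Apart from this limit of centring, the causes were not tested.

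With each mouse left out in turn, the liver differences ran from -1.16 to -0.22 for Gsta3, -0.66 to 0.49 for Gstk1, -0.44 to 0.079 for Gstm1, -0.043 to 0.81 for Gstm2, -0.45 to 0.45 for Gstm3 and -0.94 to 0.25 for Gstt1. The BAT difference of Gstt2 ran from -0.15 to 0.69. In WAT they ran from -0.10 to 0.90 for Gsta3, -0.65 to 0.65 for Gsta4, -1.27 to 0.11 for Gstm1, -0.82 to 0.42 for Gstm2, -0.54 to 0.37 for Gstm3, -0.25 to 0.63 for Gstp3 and -0.82 to 0.22 for Gstt2. The SD of Gstp3 between livers stayed between 0.739 and 0.800.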
